A study of Mus musculus with 18 samples.

Results

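The genes described here encode proteins that the liver secretes into blood plasma: 38 mouse genes for carrier proteins, apolipoproteins, coagulation factors, protease inhibitors and complement components. BMAL1 peaks were taken as belonging to a gene when the peak centre lay inside it or within 50 kb of either end, and a peak in the windows of several neighbouring genes was counted once. All 38 genes were found in the RefSeq gene table of GRCm38.p6, which holds 21887 protein-coding genes. Of the 11366 peaks in the series, 65 met the rule: 41 of 4813 liver peaks, 13 of 4034 kidney peaks and 11 of 2519 heart peaks. One of the 38, C5ar1, encodes the receptor for the complement fragment C5a on white blood cells. It is not a plasma protein, and each count is also given without it where that matters.

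BMAL1 pairs with CLOCK, and the pair binds the E-box CACGTG to drive the circadian clock and its target genes. Plasma proteins are made by hepatocytes under a small set of liver-enriched transcription factors, and their genes often lie in clusters that arose by duplication. Clock control is known for parts of hepatic lipid, glucose and xenobiotic metabolism.

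BMAL1 binding had been mapped by ChIP-seq in 3 organs (liver, kidney and heart) of C57BL/6 mice, wild type and aged 3 to 6 months, housed under 12 h light and 12 h dark with free access to food. All tissues were taken at 1 time, 6 h after lights on, from the same animals (3 mice per tissue). There were 18 libraries, with 3 ChIP and 3 input libraries in each tissue. The libraries of a tissue, ChIP and input, were pooled by the authors into a single list of peaks, so the lists hold no value per animal, no error between animals can be given, and the read depth behind each peak is unknown. Each group is a whole organ, and a list of peaks does not show which of its cells carried the binding or whether the genes were expressed; the tissue labels could not be checked against marker expression. For the 3 input libraries titled as heart the source field reads kidney although their tissue field reads heart, so counts that join heart to another tissue are also given without the heart list. Each peak carries a whole-number score from the authors whose scale is not given; it ran from 17 to 389 in liver (median 40), 14 to 304 in kidney (median 28) and 16 to 375 in heart (median 25). The score is used here only through its rank within its own list, where rank 1 is the highest score.

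Sequences at the starts of the genes show the letters under these peaks. RefSeq promoter windows of GRCm38.p6, from 250 bases before a listed transcription start to 50 after it, were matched for 29 of the 38 genes; none was matched for Ttr, Trf, Hp, Apoc1, Apoc3, Serpina6, Plg, Cfb and Proc. Liver peaks overlapped such a window at 7 of the genes (Ahsg, Apoa5, Apoe, Fga, Fgg, Rbp4 and Serpinc1), and no kidney or heart peak overlapped one. The share of all windows that a peak overlaps is not given, so these counts have no background. Few windows held a peak centre: of 21263 for all protein-coding genes, 682 held one of liver, 945 of kidney and 446 of heart. The lines below give the bases that lie both under the liver peak and before the start for the 4 genes with the most peak sequence in the window. They are shown so that the E-box under the Apoa5 peak can be set beside the covered bases of the others, in which none was found. The capitals mark CACGTG in Apoa5 and a match to TTGCNNAA, a form bound by C/EBP factors, in Rbp4; the lines without capitals hold neither, nor CACGTT, TTATGTAA or CAAAGTCCA, on either strand.
Apoa5, chr9:46268421-46268607, plus strand: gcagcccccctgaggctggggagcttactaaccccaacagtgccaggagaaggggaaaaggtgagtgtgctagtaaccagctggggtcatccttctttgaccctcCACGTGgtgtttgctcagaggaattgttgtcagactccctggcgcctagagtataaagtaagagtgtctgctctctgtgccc
Serpinc1, chr1:160978382-160978582, plus strand: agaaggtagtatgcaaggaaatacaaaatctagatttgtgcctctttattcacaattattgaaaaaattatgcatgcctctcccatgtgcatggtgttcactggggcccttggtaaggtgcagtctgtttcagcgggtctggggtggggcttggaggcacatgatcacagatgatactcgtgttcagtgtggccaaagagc
Fgg, chr3:83007587-83007723, plus strand: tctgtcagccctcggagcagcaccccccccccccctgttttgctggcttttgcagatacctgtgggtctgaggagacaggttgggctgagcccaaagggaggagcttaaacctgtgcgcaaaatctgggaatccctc
Rbp4, chr19:38124812-38125014, minus strand: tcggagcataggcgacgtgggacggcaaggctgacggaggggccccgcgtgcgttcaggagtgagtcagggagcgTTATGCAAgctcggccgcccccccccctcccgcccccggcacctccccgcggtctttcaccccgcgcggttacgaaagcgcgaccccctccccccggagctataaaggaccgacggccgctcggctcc

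The E-box at Apoa5 lay 13 bp from the centre of the liver peak and 80 bases before the nearer listed start. For Apoa5, Serpinc1 and Rbp4 the whole 242 bp peak was inside the promoter window. In the other peaks 187 bases were covered at Fgg, 144 at Apoe, 88 at Fga and 80 at Ahsg, so an E-box elsewhere in those peaks could not be seen. In the Serpinc1 peak a TTGCNNAA match lay 7 bases after the start, beyond the printed bases. Apoa5 was thus the only one of the 7 with CACGTG in the covered bases. Over whole promoter windows, with or without a peak, CACGTG was in 2 of the 34 windows of the plasma protein genes (5.9%, both of Apoa5), in 7.8% of the 21263 windows of protein-coding genes and in 46.3% of the 682 windows that contained the centre of a liver peak. Among liver peaks lying wholly inside a promoter window, 84 of 170 held CACGTG (49.4%), and among those found in liver alone 19 of 46 did (41.3%); of the 3 plasma protein genes whose peak was wholly covered, Apoa5 alone had it. TTGCNNAA occurred in 12 of the 34 promoter windows of the plasma protein genes (35.3%), including those of Alb, Apob, Fga, Fgb, Hpx and C3, against 10.2% of all windows and 6.2% of windows with a liver peak centre. The windows of 1 gene can overlap, and a match is a description of letters, not a bound site. All 5 motifs were searched on both strands.

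Liver peaks were found near more of the plasma protein genes than kidney or heart peaks. In liver 26 of 38 genes had a peak within 50 kb (68.4%), against 34.0% of all protein-coding genes. In kidney 14 did (36.8%, against 33.1%), and in heart 11 did (28.9%, against 22.7%), both above their backgrounds but closer to them than in liver. Peaks of liver and of neither other tissue lay near 12 genes (31.6%, against 8.98%), and peaks of kidney or heart without liver near 5 (13.2%, against 16.7%). Without the heart list, 15 genes had a liver peak and none of kidney (39.5%, against 12.0%), and 3 a kidney peak and none of liver (7.9%, against 11.2%). Of the 38 genes, 7 had no peak of any tissue in the window: Ttr, Apoa2, Apob, Serpina1a, Serpind1, F9 and Plg. Genes without a peak made up a larger share of all protein-coding genes than of the 38. Of all protein-coding genes, 34.0% had a liver peak, 16.7% had a kidney or heart peak without liver, and the rest had none. Serpina1a lies in a cluster of near-identical copies, and how reads that fit several copies were treated is not given in the sources used here.

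The contrast between tissues was sharper at the genes themselves. With a window of 1 kb instead of 50 kb, a size chosen after the data had been seen, 13 genes had a liver peak inside or next to them (34.2%, against 13.1% of all protein-coding genes). At 12 of these genes no kidney or heart peak lay within 1 kb (31.6%, against 5.39%), and 1 gene, F2, had a kidney or heart peak there and none of liver (2.6%, against 10.1%). Without the heart list, 12 genes had a liver peak within 1 kb and none of kidney (31.6%, against 6.31%), and no gene the reverse (background 6.49%). The 13 genes were Trf, Ahsg, Rbp4, Apoa5, Apoc1, Apoe, Serpina6, Serpinc1, Fga, Fgg, F5, F7 and F10. In kidney only Apoe had such a peak (2.6%, against 13.3%), and in heart only F2 (2.6%, against 8.83%). Of the 29 genes with a listed start, 9 had a liver peak centre within 1 kb of one (31.0%, against 6.90% of 17492 genes), none had a kidney peak there (background 8.47%) and 1, F2, had a heart peak (3.4%, against 4.84%). Cutting every list to its 2519 highest-scoring peaks kept liver ahead within 50 kb, with 21 genes in liver (55.3%, against 23.1%), 7 in kidney (18.4%, against 24.6%) and 11 in heart (28.9%, against 22.7%). Within 1 kb that setting left 6 genes in liver (15.8%, against 8.23%), none in kidney (background 9.30%) and 1 in heart (2.6%, against 8.83%). No test was made between tissues, since the lists hold no replicates and the genes were not chosen independently of these data.

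**Figure D1:**
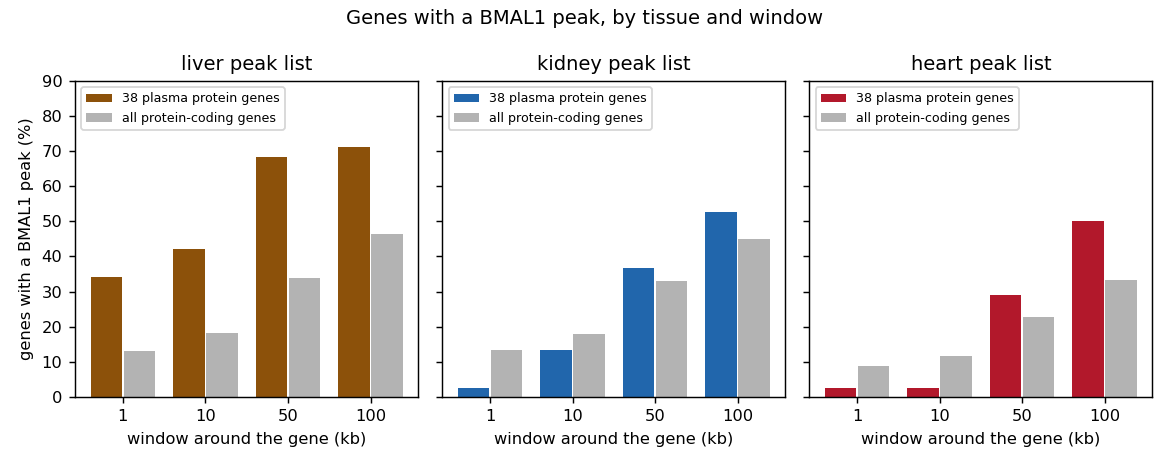
Bars give the percentage of genes (vertical axis) with at least 1 BMAL1 peak centre inside the gene or within the window on the horizontal axis (kb), in the liver, kidney and heart lists; coloured bars are the 38 plasma protein genes and grey bars all 21887 protein-coding genes. In liver the coloured bar was above the grey one at each of the 4 windows, from 34.2 against 13.1% at 1 kb to 71.1 against 46.3% at 100 kb, whereas in kidney and heart it was below at 1 and 10 kb and above at 50 and 100 kb.

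Because neighbouring genes share peaks, the windows were also merged. The 38 genes made up 29 separate loci covering 3.52 Mb. Liver peaks lay in 17 of these loci, kidney peaks in 11 and heart peaks in 10. The matching share over merged loci of all protein-coding genes is not given, so these locus counts cannot be set against a background. The density was 11.7 liver peaks per Mb, against 2.62 over the merged windows of all protein-coding genes, a ratio of 4.45. It was 3.70 against 2.26 in kidney (ratio 1.63) and 3.13 against 1.40 in heart (ratio 2.24). The plasma protein genes were shorter than others, with a median length of 10.5 kb against 17.2 kb.

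Most liver peaks at these genes had no partner in the other lists. An overlap of 1 bp or more made peaks of different tissues shared. By that rule 36 of 41 liver peaks were found in liver alone (87.8%, exact Clopper-Pearson 95% interval 73.8 to 95.9%, counting error only), against 65.0% of the 4421 liver peaks near any protein-coding gene. The count was also 36 when the heart list was left out of sharing. All 17 liver peaks inside a plasma protein gene or within 1 kb of one were liver-only (interval 80.5 to 100%), against 62.0% of the 3412 liver peaks inside or within 1 kb of any protein-coding gene. Both intervals treat peaks as independent, but the 41 peaks lay in 17 loci, so the intervals may be too narrow. The 21 liver peaks whose nearest protein-coding gene was one of the 38 were all liver-only too, against 66.5% of the whole liver list of 4813 peaks. In kidney 7 of 13 peaks were found in that tissue alone (53.8%, against 57.1% near all protein-coding genes) and in heart 7 of 11 (63.6%, against 63.8%). A peak missing from a list can still be a weak site in that tissue. Merged across tissues, the 65 peaks formed 56 regions, of which 36 were in liver alone, 7 in kidney alone, 7 in heart alone and 6 in at least 2 tissues. Each of those 6 shared regions lay closest to a gene outside the set: Ehmt2, Ccdc9 and Usf2 in all 3 tissues, Nek4 and Afp in liver and kidney, and Tbccd1 in kidney and heart.

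**Figure D2:**
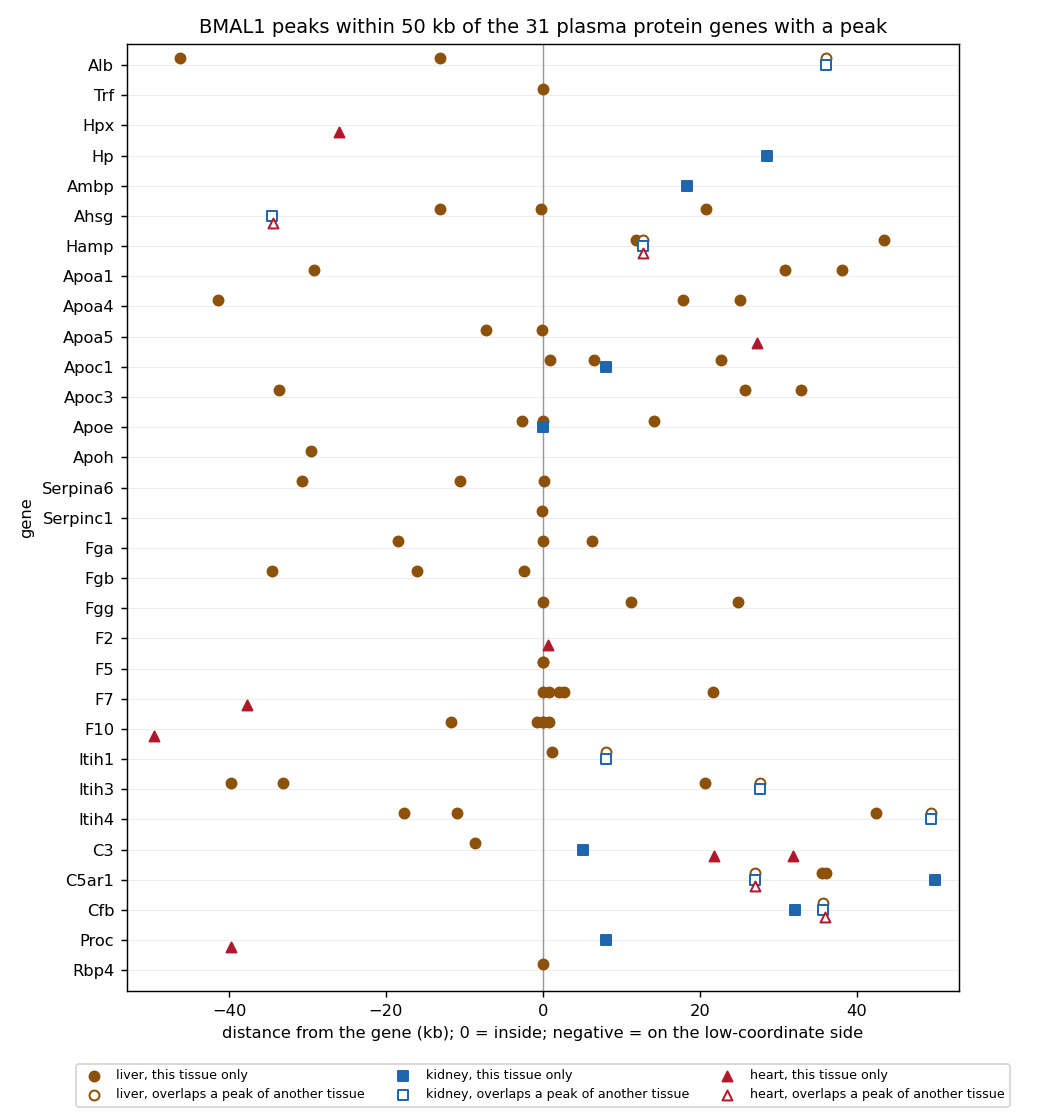
Each symbol is a BMAL1 peak placed by its distance in kb from the gene named on the vertical axis (0 is inside the gene, negative values lie on the low-coordinate side), for the 31 genes with a peak; circles are liver, squares kidney and triangles heart, filled when the peak was found in that tissue only and open when it overlapped a peak of another tissue. Filled circles fill the column at 0, where the only other symbols are the kidney peak in Apoe and the heart peak beside F2; a peak near several genes is drawn at each.

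The 41 liver peaks had scores from 18 to 93 with a median of 39, close to the median of 40 over the whole list, and 19 of them were above that list median. Their ranks ran from 535 to 4543. The 17 liver peaks at the genes also had a median score of 39, with the best rank, 821, beside F10. The 13 kidney peaks had a median score of 21, below their list median of 28, and ranks from 229 to 3802; 5 were above the list median. The 11 heart peaks had a median score of 36, above their list median of 25, and ranks from 405 to 1975; 7 were above the list median. The highest-ranked peaks of kidney and heart, and the highest 2 of liver, were nearest to genes outside the set.

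**Figure D3:**
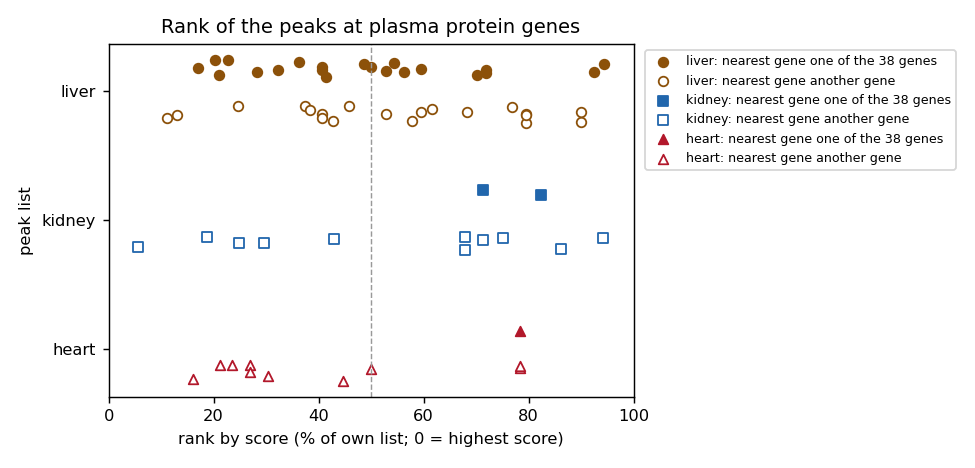
Each symbol is 1 of the 65 peaks, placed by its rank as a percentage of its own list (horizontal axis, 0 is the highest score) in the row of its tissue; filled symbols are peaks whose nearest protein-coding gene is one of the 38 and open symbols the rest, and the vertical scatter has no meaning. Filled liver circles spread over most of the axis, while the 2 filled kidney squares and the 1 filled heart triangle lie in the lower-scoring part of their lists.

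Among the coagulation genes, the densest binding was at F7 and F10, neighbours on chromosome 8 that encode coagulation factors VII and X, serine proteases of the extrinsic and common pathways. This locus held 5 liver peaks, all liver-only, within 31.8 kb. One was inside the annotated span of F7 (chromosome 8, 13025525 to 13025766, score 59, rank 1362), 388 bases before the listed start. At F10, 3 peaks lay around the start: 652 bases before it (score 54, rank 1557), 480 bases after it (score 45, rank 1997) and 1198 bases after it (score 46, rank 1953). The other lay 810 bp beyond the far end of F10 (chromosome 8, 13057365 to 13057606) with score 77 and rank 821. No kidney peak lay in the windows, and the 1 heart peak (score 36, rank 763) was nearest to Mcf2l, 37.7 kb from F7. Only 0.653% of protein-coding genes had at least 5 liver peaks within 50 kb.

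The fibrinogen genes Fgg, Fga and Fgb, which encode the chains of the clot protein, share a locus on chromosome 3 with 3 liver peaks and none of kidney or heart. The peak at Fgg was centred 16 bases before its start (83007587 to 83007828, score 35, rank 2707). The peak at Fga was centred 82 bases after its start (83026115 to 83026356, score 19, rank 4450), among the lowest scores of the list. The third lay 2394 bp beyond the downstream end of Fgb (83039732 to 83039973, score 50, rank 1743), and the start of Fgb had no peak. At least 3 liver peaks within 50 kb were found for 17 of the 38 genes (44.7%, against 5.23%). Neighbours that share peaks are among the 17, as Fgg, Fga and Fgb are, and so is C5ar1, which is not a plasma protein. At least 3 liver peaks within 50 kb and none of kidney or heart were found for 7 of the 38 genes (18.4%, against 0.640% of all protein-coding genes); these were Fgg, Fga, Fgb, Apoa1, Apoc3, Apoa4 and Serpina6, which lie in 3 loci. Without the heart list the count was 9 (23.7%, against 0.987%), with F7 and F10 added.

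F5, the cofactor that factor X needs in the prothrombinase complex, had 2 liver-only peaks inside the gene, 3292 bases after the start (score 36, rank 2621) and 61036 bases after it (score 18, rank 4543). F2, which encodes prothrombin, had no liver peak in its window; its 1 peak was in heart, 600 bases before the start, with the low score of 17 (rank 1975 of 2519). Proc, the gene of the anticoagulant protein C, had 1 kidney peak 8.0 kb away (score 17, rank 3323) and 1 heart peak 39.7 kb away (score 17, rank 1975), and no liver peak. F9 and Plg, for factor IX and the clot-dissolving zymogen plasminogen, had none. In all, 6 of the 10 genes of coagulation and fibrinolysis had a liver peak within 50 kb (against 34.0% of all protein-coding genes), 1 a kidney peak (against 33.1%) and 4 a heart peak (against 22.7%). The 4 genes with a heart peak rest on 3 peaks, since F7 and F10 share one. The 6 with a liver peak share peaks too: Fgg, Fga and Fgb lie in 1 locus, F7 and F10 in another, and F5 alone.

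Among the serpins, Serpinc1 encodes antithrombin, the main inhibitor of thrombin and factor Xa. Its 1 liver peak was centred 80 bases before the start (score 27, rank 3458), and the whole peak lay in the promoter window printed in part above. Serpina6, the corticosteroid-binding globulin that carries glucocorticoids in blood, had 3 liver-only peaks. The nearest was 212 bp from the gene (chromosome 12, 103657309 to 103657550, score 39, rank 2408), and the others, 10.6 and 30.7 kb away (scores 32 and 24), were nearest to Serpina10. Serpind1 and Serpina1a, for heparin cofactor II and an alpha-1-antitrypsin, had none. Of the 4 serpins, 2 had a liver peak within 50 kb (against 34.0% of all protein-coding genes). None had a kidney peak (against 33.1%) or a heart peak (against 22.7%), and 4 genes are too few to read this as a trait of serpins.

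**Figure D4:**
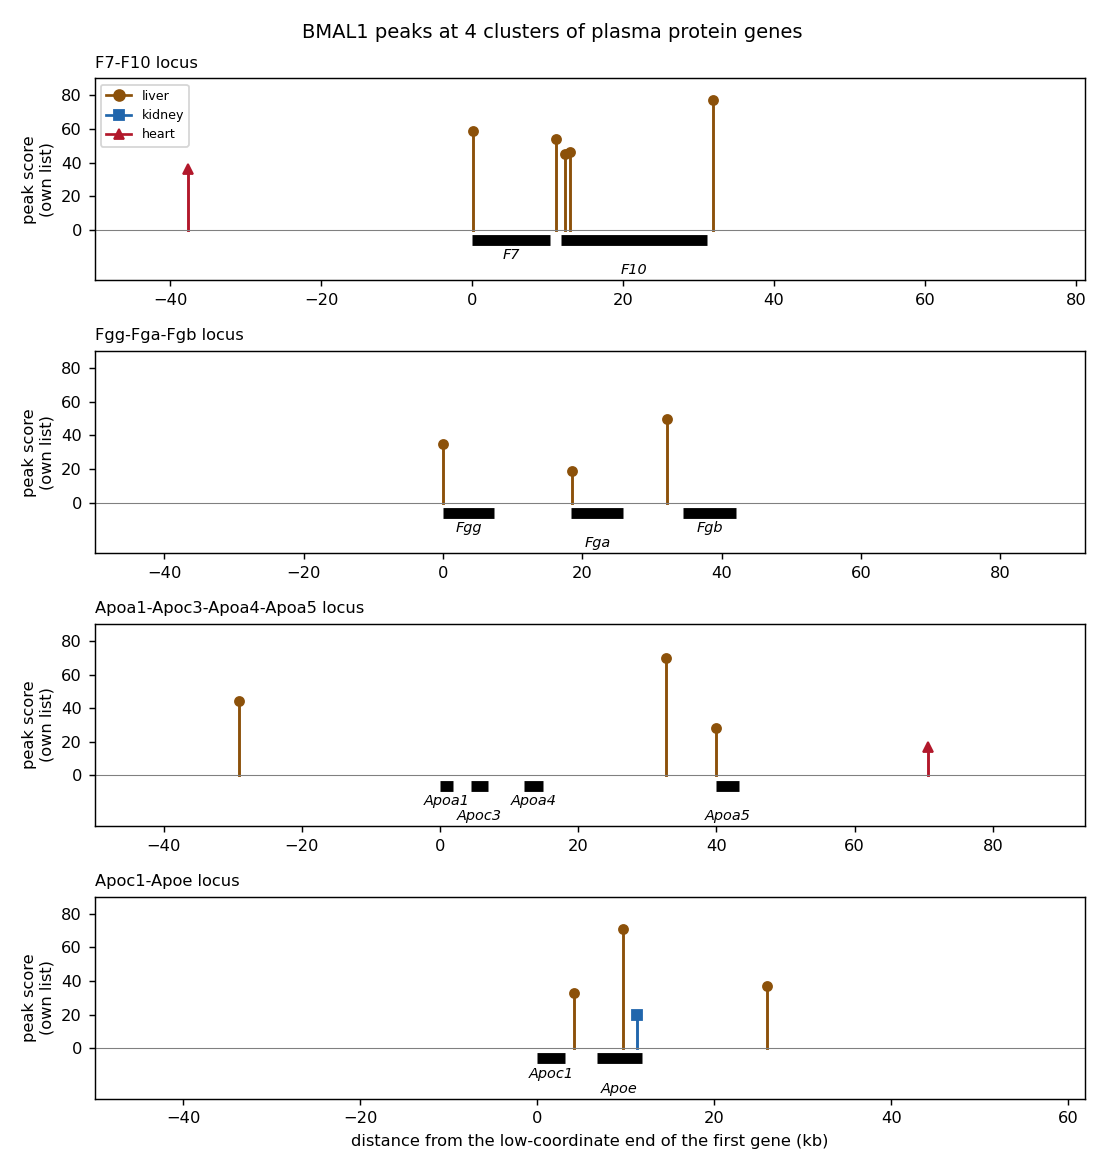
Vertical lines are BMAL1 peaks at the F7-F10, Fgg-Fga-Fgb, Apoa1-Apoc3-Apoa4-Apoa5 and Apoc1-Apoe loci, placed by distance in kb from the low-coordinate end of the first gene, with heights equal to the authors' score in the peak's own list (scores of different tissues are not on a known common scale); black bars are the plasma protein genes. Liver gave 5, 3, 3 and 3 peaks, kidney 1 (in Apoe) and heart 2, both away from the genes.

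The apolipoproteins coat lipoprotein particles and steer their metabolism. Of 9 such genes 7 had a liver peak within 50 kb (against 34.0% of all protein-coding genes), 2 a kidney peak (against 33.1%) and 1 a heart peak (against 22.7%). The 2 with a kidney peak, Apoc1 and Apoe, share 1 peak. Liver peaks were shared too: the 7 genes are the neighbours Apoa1, Apoc3, Apoa4 and Apoa5, the pair Apoc1 and Apoe, and Apoh. Apoa1 (the main protein of high-density lipoprotein), Apoc3 (an inhibitor of triglyceride clearance), Apoa4 and Apoa5 (an activator of triglyceride clearance) share a locus on chromosome 9. It held 3 liver-only peaks. One was centred 66 bases before the nearer Apoa5 start (46268421 to 46268662, score 28, rank 3377) and holds the E-box printed above. Another lay 7296 bases before the nearer Apoa5 start (46261191 to 46261432, score 70, rank 1008), between Apoa4 and Apoa5. The third lay 29.2 kb before Apoa1 and was nearest to Sik3 (score 44, rank 2062). The starts of Apoa1, Apoc3 and Apoa4 had no peak, so their count in the window comes from peaks closer to Apoa5 or Sik3. The 1 heart peak, 27.3 kb from Apoa5, had score 17 and was nearest to Bud13.

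Apoe and Apoc1, which mediate and modulate the uptake of lipoprotein remnants, are neighbours on chromosome 7 with 3 liver peaks and 1 kidney peak. The liver peak inside Apoe (19699041 to 19699282, score 71, rank 976) was centred 26 bases after an internal listed start. The kidney peak, also inside Apoe, was elsewhere (19700690 to 19700877, score 20, rank 2878), 1596 bases before the nearest listed start, and did not overlap it. This made Apoe the only one of the 38 genes with peaks of 2 tissues inside it or within 1 kb, and they were at different sites. The liver peak nearest Apoc1 lay 938 bp from Apoc1 (score 33, rank 2869), and another, 14.1 kb from Apoe, was nearest to Tomm40 (score 37, rank 2546). Apoh, a phospholipid-binding glycoprotein, had 1 liver peak 29.5 kb before its start, nearest to Prkca (score 34, rank 2780). Apob and Apoa2, the structural proteins of very-low-density and high-density particles, had none.

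The carriers, acute-phase proteins and hepcidin made a group of 9, of which 5 had a liver peak within 50 kb (against 34.0% of all protein-coding genes), 5 a kidney peak (against 33.1%) and 3 a heart peak (against 22.7%). Alb, the albumin gene on chromosome 5, had 3 liver peaks. The strongest was 13.1 kb before the start (90447676 to 90447917, score 67, rank 1095) and liver-only, another liver-only peak was 46.2 kb before it and nearest to Ankrd17 (score 20), and the third, 36.1 kb beyond the gene and nearest to Afp, overlapped a kidney peak (scores 29 in liver and 21 in kidney). Ahsg, which encodes fetuin-A, an inhibitor of calcification, had a liver-only peak 292 bases before its start (chromosome 16, 22891603 to 22891844, score 40, rank 2345). Its other liver peaks were 13.1 kb before the start (score 20, nearest to Dnajb11) and 20.8 kb beyond the gene at the start of Fetub (score 49), the related fetuin-B gene. Kidney and heart shared a peak 34.4 to 34.5 kb from Ahsg, nearest to Tbccd1 (ranks 1003 and 592), where liver had none.

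Rbp4, the carrier of retinol in plasma, had 1 peak, in liver, inside the gene (chromosome 19, 38124773 to 38125014, score 46, rank 1953). It was centred 82 bases before the internal one of its 2 listed starts. Trf, which encodes the iron carrier transferrin, also had a single liver peak inside the gene (chromosome 9, 103228749 to 103228990, score 37, rank 2546). Hamp encodes hepcidin, the hormone that limits iron release into blood. Its 3 liver peaks were 11.9, 12.8 and 43.4 kb before the start; the first pair was nearest to Usf2, a gene for an E-box-binding factor, and the last to Fam187b. The middle peak of Hamp was found in all tissues (liver score 46, kidney score 53, heart score 39), and the one 906 bp from it was liver-only (score 64, rank 1185). Hp, Ambp and Hpx, for the haemoglobin carrier haptoglobin, the precursor of alpha-1-microglobulin and bikunin, and the haem carrier hemopexin, had 1 peak each and none in liver. These were a kidney peak 28.6 kb from Hp (score 16), a kidney peak 18.4 kb from Ambp (score 14, the lowest in that list) and a heart peak 26.0 kb from Hpx (score 25, equal to the heart list median). Ttr, the thyroxine carrier transthyretin, had none.

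Itih1, Itih3 and Itih4, of the inter-alpha-trypsin inhibitor heavy chain family, share a locus on chromosome 14 with 4 liver peaks and 1 kidney peak. The closest to any of them was liver-only, 1186 bases before the start of Itih1 (30944354 to 30944595, score 27, rank 3458). A peak near Nek4, 8.1 kb before Itih1, was shared by liver and kidney (scores 48 and 40), and 2 further liver peaks were nearest to Stimate (score 24 each).

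The complement group held 3 genes, C5ar1 among them, and all 3 had peaks of every tissue within 50 kb. The shares of all protein-coding genes at that window were 34.0% for liver, 33.1% for kidney and 22.7% for heart. No complement gene had a peak within 1 kb, where those shares were 13.1, 13.3 and 8.83%. With so few genes, the lack of peaks there cannot be read as a trait of complement. C3, the central component of the cascade, had a liver peak 8.6 kb beyond its end (score 33, rank 2869), a kidney peak 5.1 kb before its start (score 20, rank 2878) and 2 heart peaks 21.8 and 31.9 kb before it (scores 46 and 27), all at different sites. Cfb, the factor B protease of the alternative pathway, owed its counts to peaks 32.1 to 35.9 kb away, nearest to Zbtb12 and Ehmt2. C5ar1 had its highest-ranked peaks 27.0 kb away, nearest to Ccdc9, in all tissues (ranks 630, 229 and 405). Its removal left 25 genes with a liver peak, 13 with a kidney peak and 10 with a heart peak.

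At Ehmt2, which encodes a histone H3 lysine 9 methyltransferase, the region in the Cfb window joined different sites. The liver and kidney peaks overlapped by 188 bp, with centres 17 bp apart, whereas the heart peak shared 17 bp with the liver peak and 7 bp with the kidney peak. Their scores were 93 (rank 535), 31 (rank 1729) and 39 (rank 679). The bases before the Ehmt2 start hold 2 E-boxes, shown in capitals. One falls under both the liver and the kidney peak, and the other under the heart peak.
Ehmt2, chr17:34898224-34898473, plus strand: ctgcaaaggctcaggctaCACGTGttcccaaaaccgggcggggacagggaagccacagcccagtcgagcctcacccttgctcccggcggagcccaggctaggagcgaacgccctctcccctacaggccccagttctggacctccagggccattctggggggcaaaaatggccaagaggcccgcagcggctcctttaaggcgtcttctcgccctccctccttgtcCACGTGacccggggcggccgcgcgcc
The CACGTG farther from the start, at chromosome 17, 34898242 to 34898247, lay 14 bp from the liver peak centre and 3 bp from the kidney peak centre. The one nearer the start, at 34898448 to 34898453, lay 17 bp from the heart peak centre and outside the liver and kidney peaks.

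A list of 77 other genes for secreted plasma proteins ran from A2m to Vtn, with further complement components, coagulation factors and serpins. These genes gave a liver share like that of the 38 within 50 kb, and a lower one within 1 kb. A liver peak lay within 50 kb of 52 of them (67.5%, against 34.0% of all protein-coding genes), a kidney peak within 50 kb of 23 (29.9%, against 33.1%) and a heart peak within 50 kb of 9 (11.7%, against 22.7%). Inside the gene or within 1 kb there were 18 genes in liver (23.4%, against 13.1%), 3 in kidney (3.9%, against 13.3%) and 2 in heart (2.6%, against 8.83%). Some of these genes neighbour the 38 and share their peaks, so the lists are not independent. Every liver peak within 50 kb of Fetub, Hrg, Afp, Serpina10, C2, Proz, Apoc2 and Apoc4 was also counted at the 38. Of the 77 genes, the 10 whose best peak ranked highest as a share of its list were Masp2, Afm, Thpo, Pzp, Vtn, C2, F12, Cpn1, Fgf21 and Igfbp2. Of these 10 best peaks, all but 1 lay outside the gene and were nearest to another gene, such as Srm at Masp2 (liver score 149, rank 155, also in kidney) and Clcn2 at Thpo (liver score 144, rank 171, found in all tissues). The exception was Cpn1, a carboxypeptidase subunit that trims anaphylatoxins, with a liver peak inside the gene (score 92, rank 554) that overlapped a kidney peak (score 41, rank 1155).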

How the data were processed

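BMAL1 ChIP-seq and input libraries of liver, kidney and heart were grouped by their titles. Per the labels, ChIP and input libraries of a tissue were pooled by the authors into a single peak list; the score in each list is the value the authors deposited, and its scale is not given in the sources used here. The submitters' processing notes name Bowtie2, SAMtools, HOMER and the build mm10, with no roles.

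Gene positions, starts and promoter sequences came from RefSeq tables of GRCm38.p6. Peak centres were assigned to gene windows with Python 3.11.15 and pandas 2.3.3, tested on simulated peaks, and sharing between tissues required 1 bp of overlap. Ranks give tied scores the best rank. Coordinates count from 1. The main counts over the 38 genes stand beside the share of all protein-coding genes, and no significance test was made. The genes, lists and windows were chosen with earlier results of these data known. Every gene with a peak was to be described, and of the other plasma protein genes the 10 with the best rank. Alternatives changed the window, the peaks kept, the overlap rule, the nearest-gene rule and the use of C5ar1; the 1 kb window and leaving heart out were added after the data had been seen.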

Additional observations from a re-analysis of the deposited data

How the results depend on the processing

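Smaller windows lowered the counts. Genes with a peak fell from 26 in liver, 14 in kidney and 11 in heart to 16, 5 and 1 within 10 kb and to 13, 1 and 1 within 1 kb, and peaks from 41, 13 and 11 to 22, 4 and 1 within 10 kb and to 17, 1 and 1 within 1 kb. Within 100 kb, kidney peaks numbered 28, heart peaks 17 and genes with a heart peak 19. The upper 50% of each list by score left 19 liver, 5 kidney and 7 heart peaks, near 7 genes in kidney and 7 in heart. The same number of top peaks, 2519, left 21 liver and 5 kidney peaks, near 7 genes in kidney. Only peaks nearest to a member gave 16, 2 and 1 genes with 21, 2 and 1 peaks in liver, kidney and heart. For the upper 50% and for the nearest-gene rule the share of all protein-coding genes is not given. Those gene counts therefore have no background. The liver-only share, 87.8%, was 100% within 1 kb and 100% for peaks nearest to a member; under the other alternatives tried it lay between 78.9 and 95.5%, and it was 87.8% with the heart list left out of sharing. Counts of genes with liver peaks alone, 12 within 50 kb, 12 within 1 kb and 7 with at least 3 peaks, were 15, 12 and 9 without the heart list.

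No paired analysis was possible because the peak lists pool the 3 replicates of a tissue; for the same reason no replicate was left out. Read depth is unknown, and its part in the peaks missing from the kidney and heart lists was not tested.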
